A study of Homo sapiens with 6 samples.

Results

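Glucose enters a cell through carriers in the plasma membrane and is split by the enzymes of glycolysis into pyruvate, which is reduced to lactate and exported or passed to the mitochondria. A side path stores glucose as glycogen. The 33 genes described here cover that route: the glucose carriers SLC2A1 and SLC2A3 with their regulator TXNIP, the enzymes from hexokinase to lactate dehydrogenase, the lactate carriers, the gate of pyruvate dehydrogenase, and 5 glycogen genes. They were taken by gene name from the deposited table, where all 33 were found among 35750 listed genes, on 13 chromosomes. Many of these genes are known targets of the hypoxia-inducible factors, transcription factors that accumulate when oxygen is low, and tumour cells commonly make lactate even when oxygen is present. Most steps are served by isoenzymes, copies of one activity from different genes, which can be controlled separately.

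The RNA came from T98G, a human glioblastoma line grown in DMEM with 10% serum, in 2 groups of 3 libraries. One group, shControl, carried a control hairpin RNA, and the other, shSLC1A5, a hairpin against SLC1A5, a carrier of neutral amino acids including glutamine. The labels leave out the hairpin sequences, the number of hairpins or clones and the time of knockdown. They also do not say whether each library had its own culture, and p-values rest on the spread among the 6 libraries, which may be only technical. Totals ran from 59327548 to 70802167 counts per library. Levels are given as FPKM, fragments scaled to gene length and library size. The 11841 genes whose mean reached 1 FPKM were tested with edgeR, and a gene is said to have risen or fallen where its p adjusted over all of them was under 0.05.

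SLC1A5 itself had 95.01, 95.3 and 97.1 FPKM in shControl and 87.5, 88.0 and 88.3 FPKM in shSLC1A5. The groups did not overlap, but the difference was small, with a log2 fold change of -0.14 (SE 0.018, edgeR adjusted p = 1.93e-04), or -0.35 in a fit corrected for GC content and length. Every direction given here is therefore that of libraries so labelled. Of 10 glioma line markers, VIM, CD44, EGFR and SOX9 passed the expression minimum, and all 4 fell, VIM from between 385 and 397 FPKM to between 336 and 344. NES, GFAP, SOX2 and FABP7 did not exceed 0.206 FPKM in any library. Of the untested markers, CHI3L1 (0.109 to 0.245 FPKM in shControl, 0.537 to 0.686 in shSLC1A5) and NES (0.0791 to 0.113 and 0.170 to 0.206) were higher in shSLC1A5 without overlap. SOX2 was lower without overlap, with 7 to 10 counts per library in shControl and 0 in shSLC1A5. Neutrophil markers summed to 67.8 FPKM in shSLC1A5 replicate 1 and to between 0.180 and 0.570 FPKM in the other 5 libraries, with 11 of 12 detected, S100A8 the highest at 32.2 FPKM, and MPO at 0 throughout. Red cell and macrophage markers were also highest in that library, at sums of 5.27 and 3.17 FPKM. All 9 B and plasma cell markers were detected, with sums of 0.233 to 0.554 FPKM in shControl and 5.996 to 11.2 FPKM in shSLC1A5, led by IGHM. In bulk RNA, fewer cells of a type and less RNA per cell cannot be told apart. The 5 endothelial markers summed to 0.0968 to 0.218 FPKM in shControl and 1.02 to 1.22 FPKM in shSLC1A5. T and NK cell markers summed to at most 0.165 FPKM in shControl and 0.576 FPKM in shSLC1A5, and neuron and oligodendrocyte markers to between 3.43 and 4.35 FPKM with overlapping groups. The B cell, T cell and endothelial sums moved with the groups. Neutrophil, red cell and macrophage sums were high mainly in shSLC1A5 replicate 1. Macrophage sums in shSLC1A5 replicates 2 and 3 were 0.401 and 0.339 FPKM, below the 0.438 to 0.525 FPKM of shControl. The part of blood and endothelial transcripts in the results below was not tested, except that the counts of genes called are also given without shSLC1A5 replicate 1.

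Transcripts of glucose uptake, glycolysis and lactate export were mostly higher in the shSLC1A5 libraries. Of the 33 genes, 31 passed the expression minimum, 25 rose, LDHB fell, and PFKM, SLC16A1, PDHA1, PYGL and UGP2 were not called. Over all tested genes 39.2% were called, 20.2% higher and 19% lower. PFKFB2 and ALDOC were below the minimum. The median log2 fold change of the 31 was 0.34, against -0.01 over all tested genes. The rises were of moderate size, from 0.13 for ENO1 to 0.77 for SLC16A3, and 18 of them reached 0.3, as 8.94% of all tested genes did. Without shSLC1A5 replicate 1 the counts were again 25 higher and 1 lower. The FPKM values of the 2 groups did not overlap for 28 of the 33 genes, 27 higher and 1 lower, whereas 49.6% of all tested genes did not overlap, 27.3% higher and 22.3% lower.

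**Figure D1:**
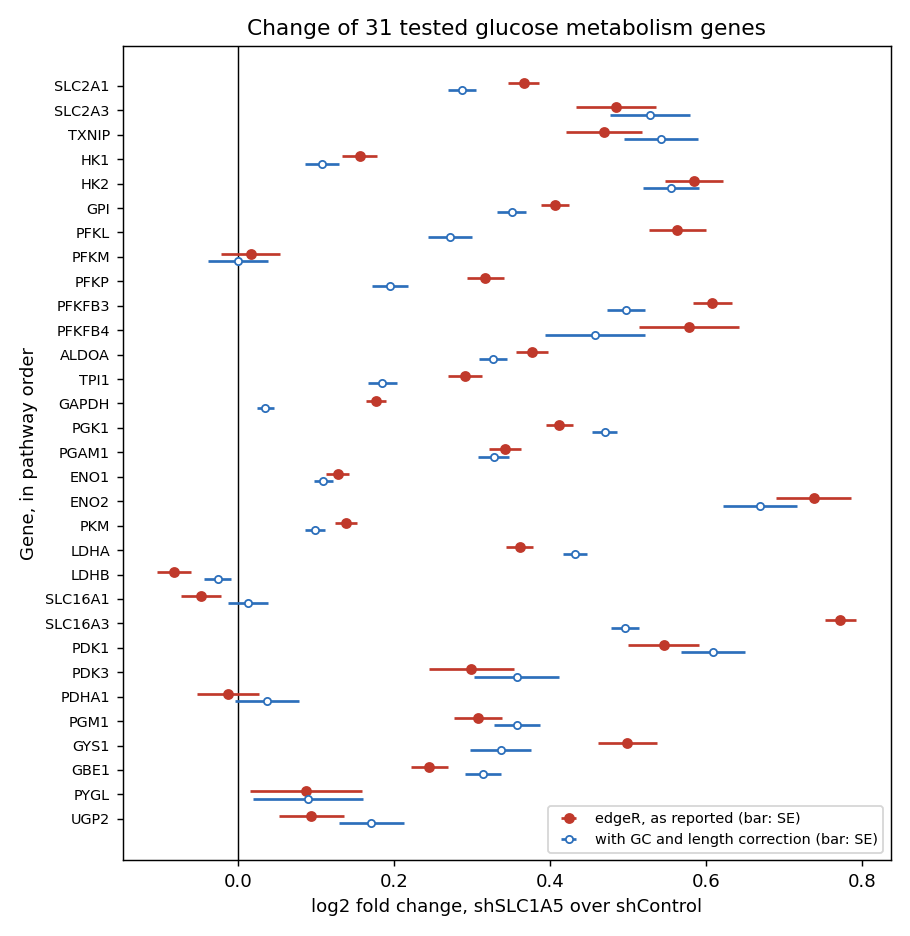
The log2 fold change of shSLC1A5 over shControl (horizontal axis) is drawn for each of the 31 tested genes in pathway order, filled for edgeR as reported and open once GC and length were corrected for, with bars of 1 SE. Among filled points SLC16A3 at 0.77 and ENO2 at 0.74 lie farthest right, LDHB at -0.08 lies left of 0, as do the filled points of SLC16A1 and PDHA1, which were not called, and the open point of GAPDH is at 0.04.

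Fold changes in these libraries tended to be higher for transcripts of higher GC content, with a Spearman correlation of 0.49 across all tested genes and 0.36 across the 31 genes, given as descriptions since genes share the same libraries. The transcripts of the 33 genes had a median GC content of 52.8%, against 48.0% over tested genes. A fit that removes the trend with GC content and length from each library was therefore run beside the plain one. It left 26 of the 31 genes higher and 0 lower, with a median log2 fold change of 0.33, while the shares over all tested genes became 11.1% higher and 14.8% lower. All 25 genes that rose in the plain fit also rose in this one. The log2 fold change dropped for PFKL from 0.56 to 0.27, for SLC16A3 from 0.77 to 0.50 and for GAPDH from 0.18 to 0.04 (edgeR adjusted p = 0.0391).

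The sequences upstream of 5 of these genes are given below, with a short motif marked where it occurs. The hypoxia-inducible factors bind a core read as ACGTG or GCGTG, and ACGTG also lies inside the E-box CACGTG, so the 2 motifs overlap and other factors read the same letters. RefSeq windows on GRCh38.p14, from 250 bases before to 50 after an annotated start, were at hand for 30 of the 33 genes, and for SLC2A3, PFKFB2 and SLC16A1 none was printed or searched. ACGTG, on either strand, was in at least 1 window of 19 of the 30 genes, or 63.3%, against 24.9% of all genes with windows. Counted by window, it was in 23 of 60, or 38.3%, against 21.4% of all windows. GCGTG was in windows of 22 of the 30 genes (40.6% of all genes), CACGTG in 6 (8.77%) and the GC box GGGCGG in 28 (48.3%). By window the shares were 45% for GCGTG (36.5% of all windows), 10% for CACGTG (7.23%) and 68.3% for GGGCGG (44.9%). The 30 genes had 60 windows, whereas all 27305 genes had 34943 distinct ones. A gene with more windows can hold a match more easily, so the shares by gene are not on an equal footing. The windows of these genes were also richer in GC than all windows, with medians of 68.3% and 58.7%. Of the 24 genes with windows that rose, 16 held ACGTG, as did 3 of the other 6. A match describes letters and not binding.

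The 250 bases before the start are shown for the lactate dehydrogenase genes LDHA and LDHB, for ENO2, the enzyme gene with the largest rise, for PGK1 and for PFKFB3. LDHA rose, whereas LDHB fell by only 0.08 on the log2 scale, a call lost once GC and length were corrected for. LDHA and PFKFB3 have another RefSeq window each, with 0 matches to ACGTG, and the window with the most such matches is shown. Capitals mark ACGTG or its reverse complement, so CACGTG counts as 2 matches.
LDHA (chr11:18394313-18394562, plus strand): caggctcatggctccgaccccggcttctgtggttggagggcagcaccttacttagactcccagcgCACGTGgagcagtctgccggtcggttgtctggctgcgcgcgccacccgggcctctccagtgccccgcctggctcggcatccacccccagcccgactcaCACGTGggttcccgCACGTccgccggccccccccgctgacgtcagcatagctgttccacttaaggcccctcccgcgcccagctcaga
LDHB (chr12:21657843-21658092, minus strand): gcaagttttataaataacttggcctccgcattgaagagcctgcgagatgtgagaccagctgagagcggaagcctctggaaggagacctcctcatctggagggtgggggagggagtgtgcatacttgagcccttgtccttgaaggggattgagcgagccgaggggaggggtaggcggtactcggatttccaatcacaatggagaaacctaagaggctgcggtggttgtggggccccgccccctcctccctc
ENO2 (chr12:6914330-6914579, plus strand): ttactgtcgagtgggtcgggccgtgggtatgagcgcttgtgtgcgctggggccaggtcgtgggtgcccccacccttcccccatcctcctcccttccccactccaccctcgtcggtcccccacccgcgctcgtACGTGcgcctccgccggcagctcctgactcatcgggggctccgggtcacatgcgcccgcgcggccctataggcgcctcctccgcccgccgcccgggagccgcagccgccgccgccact
PGK1 (chrX:78103998-78104247, plus strand): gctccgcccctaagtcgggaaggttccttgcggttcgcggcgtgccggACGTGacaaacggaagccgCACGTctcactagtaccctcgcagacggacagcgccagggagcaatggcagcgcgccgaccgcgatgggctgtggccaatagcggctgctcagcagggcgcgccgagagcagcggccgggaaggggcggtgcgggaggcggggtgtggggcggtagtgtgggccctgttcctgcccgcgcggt
PFKFB3 (chr10:6202682-6202931, plus strand): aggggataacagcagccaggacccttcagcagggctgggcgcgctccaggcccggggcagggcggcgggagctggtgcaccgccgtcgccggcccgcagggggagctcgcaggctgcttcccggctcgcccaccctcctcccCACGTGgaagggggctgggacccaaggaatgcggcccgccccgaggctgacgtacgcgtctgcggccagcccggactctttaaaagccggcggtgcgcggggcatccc
LDHA held 5 ACGTG matches, PGK1 and PFKFB3 2 each, ENO2 1 and LDHB 0. GCGTG, the other form of the core, is not marked. The full windows of LDHA, LDHB and PGK1 shown here held 1 GCGTG match each, and those of ENO2 and PFKFB3 held 0.

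All 3 genes of glucose uptake rose, TXNIP, which opposes uptake, among them. SLC2A1, the widespread carrier GLUT1 (ENSG00000117394, GRCh38 chromosome 1, 42925353 to 42958868, minus strand), had 54.9, 57.3 and 54.9 FPKM in shControl and 71.9, 72.8 and 72.5 in shSLC1A5. The groups were well apart, with a log2 fold change of 0.37 (SE 0.020, edgeR adjusted p = 3.19e-07). SLC2A3, the high-affinity carrier GLUT3, stood at 6.98, 6.19 and 6.80 FPKM and rose to 9.67, 9.23 and 9.29, a log2 fold change of 0.48 (SE 0.051). Its near-identical neighbour SLC2A14 had 15 to 32 counts per library against 2653 to 4699 for SLC2A3. TXNIP, an arrestin-like protein that promotes removal of glucose carriers from the membrane and is itself induced by glucose, rose as well, from 12.3, 12.7 and 13.4 FPKM to 18.8, 17.1 and 17.7. Its relative ARRDC4, which is induced in the same way, rose from 2.00 ± 0.358 to 2.73 ± 0.104 FPKM (SD, n = 3; edgeR adjusted p = 0.0207).

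At the first step the 2 hexokinases rose unequally. HK1, the form present in most tissues, had 51.2, 53.4 and 54.2 FPKM in shControl and 58.4, 60.5 and 59.6 in shSLC1A5, a log2 fold change of 0.16 (SE 0.022). HK2, the inducible form on the outer mitochondrial membrane, went from 13.6, 14.2 and 13.4 to 21.5, 20.1 and 20.8 FPKM, a log2 fold change of 0.59 (SE 0.037, edgeR adjusted p = 9.37e-07). HK2 thus made up 20.6% ± 0.675 of the FPKM of the pair in shControl and 25.9% ± 0.999 in shSLC1A5 (SD, n = 3). HKDC1, a related hexokinase of low level, fell from 1.52 ± 0.123 to 0.874 ± 0.110 FPKM. HK3, a hexokinase of white blood cells that is named here after its values were seen, had 332 counts in shSLC1A5 replicate 1 and 0 in the other 5 libraries, the same library that held the neutrophil markers. GPI, which turns glucose 6-phosphate into fructose 6-phosphate, had 56.3, 54.7 and 55.4 FPKM in shControl and 73.6, 74.8 and 74.1 in shSLC1A5. Its log2 fold change was 0.41 (SE 0.018, edgeR adjusted p = 7.27e-08), or 33.7% more FPKM.

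Phosphofructokinase, the committed step, has 3 subunit genes, of which 2 rose. PFKP, the platelet form and here the most abundant, went from 41.4, 42.2 and 42.6 to 51.0, 54.7 and 52.9 FPKM, a log2 fold change of 0.32, which was 0.20 once GC and length were corrected for. PFKL, the liver form, went from 16.4, 17.3 and 16.1 to 24.9, 25.8 and 23.6 FPKM, a log2 fold change of 0.56 (SE 0.036). Its transcript has a GC content of 64.1%, the highest of the 33 genes, and the corrected value was 0.27 (edgeR adjusted p = 3.79e-05). PFKM, the muscle form, was at 13.0, 12.3 and 12.2 FPKM in shControl and 12.7, 12.5 and 13.1 in shSLC1A5. These values overlapped, and the log2 fold change of 0.02 had a 95% confidence interval of -0.07 to 0.10 (edgeR adjusted p = 0.769). SENP1, on the other strand across PFKM, had 43.6% as many counts and was at -0.14 on the log2 scale (edgeR adjusted p = 0.0521), and without the strand setting, which the sources used here do not give, the level of PFKM is uncertain. Relative to PFKL, the log2 ratio of PFKM went from -0.41 ± 0.081 to -0.96 ± 0.105 (SD, n = 3).

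The PFKFB enzymes make and remove fructose 2,6-bisphosphate, the strongest activator of phosphofructokinase. PFKFB3, whose kinase activity far exceeds its phosphatase activity, had 16.3, 16.7 and 16.5 FPKM in shControl and 25.1, 25.4 and 25.6 in shSLC1A5. The values within each group were close, and the log2 fold change was 0.61 (SE 0.025, edgeR adjusted p = 3.77e-08). PFKFB4 went from 3.40, 3.69 and 3.58 to 5.18, 5.07 and 5.83 FPKM, a log2 fold change of 0.58 (SE 0.064). The table gives UCN2 on the same strand across PFKFB4, with 55.1% as many counts, and UCN2 was at 0.04 on the log2 scale (edgeR adjusted p = 0.733). PFKFB2 was below the minimum and untested, with 1.00, 0.873 and 0.870 FPKM in shControl and 0.879, 0.933 and 0.951 in shSLC1A5, with overlap. YOD1, on the other strand across PFKFB2, had 12436 counts over the 6 libraries against 4119 for PFKFB2. The strand setting of the counting is not given in the sources used here, so the level of PFKFB2 is uncertain.

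**Figure D2:**
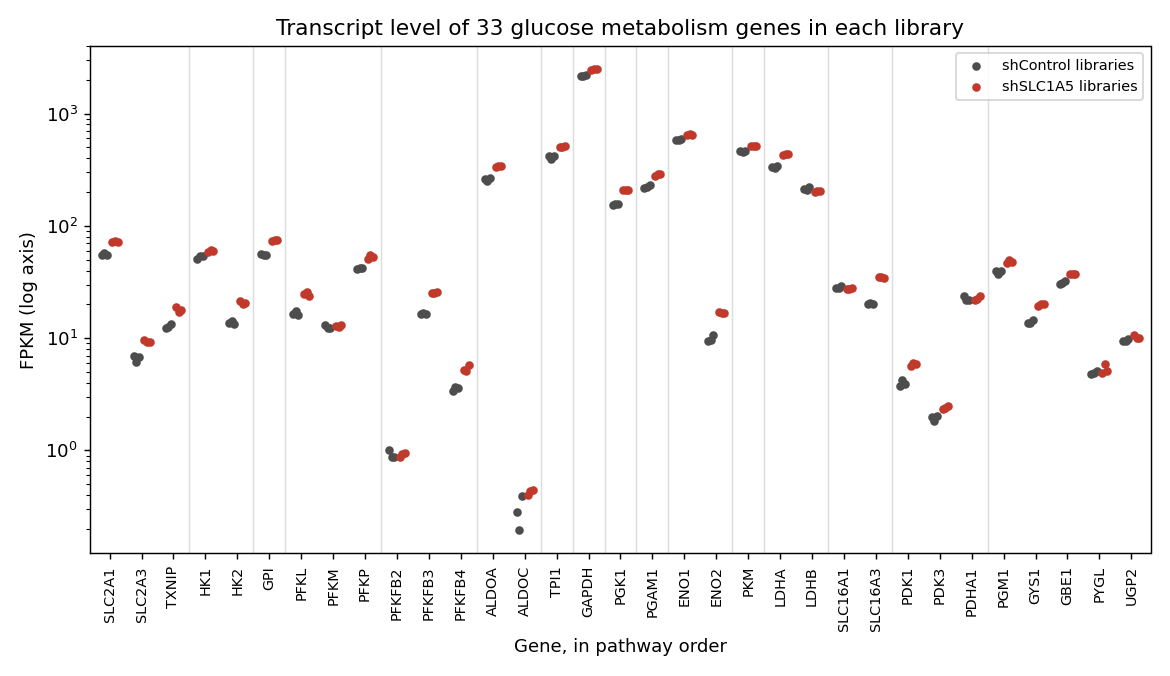
FPKM of the 33 genes (vertical log axis) in pathway order, with 1 point per library, grey for the 3 shControl and red for the 3 shSLC1A5 libraries, and vertical lines between steps. Red points lie above grey ones without overlap for 27 genes and below them for LDHB alone, and levels span from 0.194 FPKM for ALDOC to 2495 FPKM for GAPDH.

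The main enzymes that split and oxidise the sugar, ALDOA, TPI1 and GAPDH, were abundant transcripts, and all 3 rose. ALDOA, the main aldolase, went from 259, 253 and 268 to 336, 344 and 342 FPKM, a log2 fold change of 0.38 (SE 0.020, edgeR adjusted p = 3.04e-07). A gene the table calls AC093512, on the same strand across ALDOA, had 6.01% as many counts and was at 0.21 on the log2 scale (edgeR adjusted p = 0.122). ALDOC, the brain aldolase, was untested at 0.281, 0.194 and 0.394 FPKM in shControl and 0.404, 0.432 and 0.445 in shSLC1A5. These did not overlap, but rest on 37 to 90 counts per library, and the gene overlaps AC005726 on the same strand, which had 84.5% as many counts. TPI1, triose phosphate isomerase, went from 416, 398 and 422 to 507, 503 and 514 FPKM, a log2 fold change of 0.29, which was 0.18 once GC and length were corrected for. GAPDH, the 10th most abundant gene of the table in both groups, went from 2175, 2156 and 2206 to 2464, 2494 and 2495 FPKM. That is a log2 fold change of 0.18 (SE 0.013, edgeR adjusted p = 2.24e-06), small in relative terms, but at 305.7 FPKM the largest gain of any of the 33 genes. The value was 0.27 with quantile normalization and 0.04 once GC and length were corrected for. Pseudogene copies took few reads: 49 such genes were found for 11 of the genes, and the largest, TPI1P1, had 1.67% of the counts of TPI1.

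PGK1, which makes the first ATP of the pathway, went from 152, 156 and 158 to 208, 207 and 211 FPKM, a log2 fold change of 0.41 (SE 0.017), and 0.47 once GC and length were corrected for. ATP7A, on the same strand within the span that the table gives PGK1, had 5.23% as many counts. PGAM1, phosphoglycerate mutase, went from 218, 223 and 231 to 281, 288 and 290 FPKM, a log2 fold change of 0.34 (SE 0.021). The enolases, which follow, differed in level and in change. ENO1, the common form, had 585, 579 and 598 FPKM in shControl and 640, 653 and 649 in shSLC1A5, a log2 fold change of 0.13 (SE 0.015) that was 0.03 with quantile normalization (limma adjusted p = 0.276). ENO2, known as neuron-specific enolase, went from 9.50, 9.71 and 10.7 to 17.1, 16.6 and 16.7 FPKM. Its groups lay far apart, and the log2 fold change of 0.74 (SE 0.048, edgeR adjusted p = 1.08e-06) was the largest of the glycolytic enzymes. LRRC23, on the same strand across ENO2, had 13.3% as many counts and was at 0.09 on the log2 scale (edgeR adjusted p = 0.561). PKM, pyruvate kinase, went from 465, 456 and 466 to 511, 514 and 515 FPKM, a log2 fold change of 0.14 (SE 0.014). The table has 1 row for PKM and so does not separate its splice forms.

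The 17 genes of the 11 steps from hexokinase to lactate dehydrogenase held 2.04%, 2.02% and 2.06% of all FPKM in shControl and 2.36%, 2.42% and 2.41% in shSLC1A5. All 3 shSLC1A5 libraries were above all 3 shControl libraries, and the difference of 0.357 percentage points gave p = 0.1 by an exact two-sided permutation test, the smallest that 3 against 3 allow. GAPDH alone made up 0.883% and 1.01% of all FPKM. Among the 31 tested genes the abundant ones tended to rise by a smaller fold, with a Spearman correlation of -0.29 between level and log2 fold change, against -0.10 over all tested genes, both as descriptions. Of the 9 genes above 100 FPKM in shControl, 8 rose and LDHB fell. Over all tested genes 20.2% rose and 19% fell, and the shares among all genes above 100 FPKM were not counted.

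**Figure D3:**
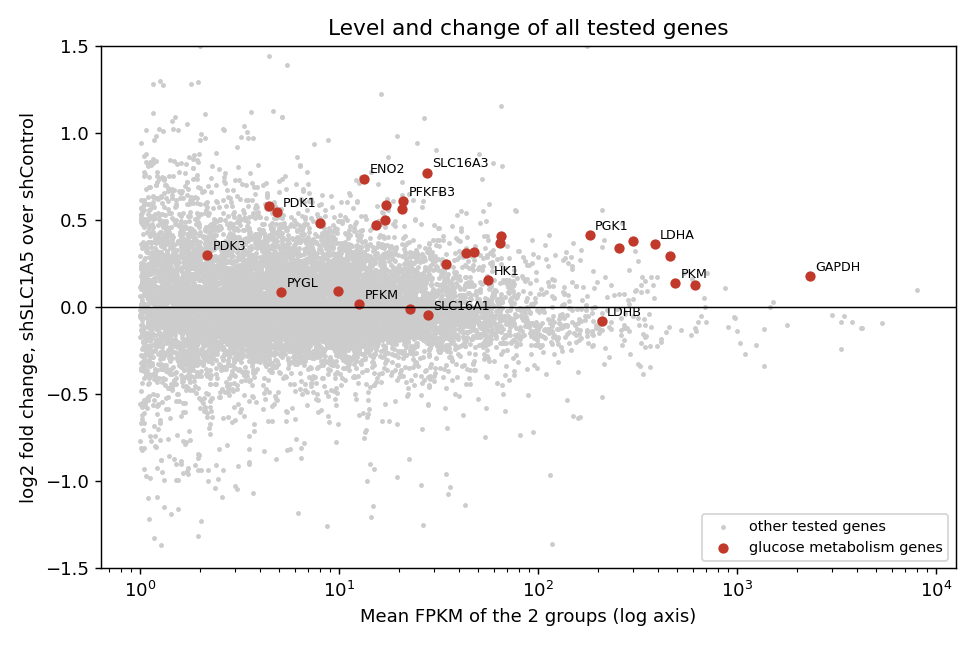
The mean FPKM of the groups (horizontal log axis) is plotted against the log2 fold change of shSLC1A5 over shControl for the 11841 tested genes, with the 31 glucose metabolism genes in red and 47 genes outside the vertical range. The 25 genes that rose lie from 0.13 to 0.77, and at the right end GAPDH is at 0.18 and PKM at 0.14.

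The 2 lactate dehydrogenase genes moved in opposite directions. LDHA, whose subunit favours making lactate from pyruvate (ENSG00000134333, chromosome 11, 18394560 to 18408425, plus strand), went from 335, 329 and 342 to 428, 436 and 441 FPKM, a log2 fold change of 0.36 (SE 0.017, edgeR adjusted p = 1.18e-07). LDHB, whose subunit favours the reverse reaction (ENSG00000111716, chromosome 12, 21635342 to 21657971, minus strand), went from 214, 208 and 220 to 202, 206 and 205 FPKM. Its raw counts were 43649 to 45750 in shControl and 45878 to 48125 in shSLC1A5, higher before scaling to depth. LDHB fell by 0.08 on the log2 scale (SE 0.021, edgeR adjusted p = 0.0114). That call was lost with limma on log2(FPKM + 1), a fold change on that scale (-0.07, adjusted p = 0.0651), with no expression minimum (-0.08, edgeR adjusted p = 0.0509) and once GC and length were corrected for (-0.03, edgeR adjusted p = 0.304). The ratio of the 2 differed by more than LDHB alone, with log2 values of LDHB over LDHA of -0.65, -0.66 and -0.64 in shControl and -1.09, -1.08 and -1.10 in shSLC1A5. LDHB made up 39.0% ± 0.198 of their FPKM in shControl and 31.9% ± 0.177 in shSLC1A5 (SD, n = 3).

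The lactate carriers also separated. SLC16A3, the exporter MCT4 of cells with high glycolysis (ENSG00000141526, GRCh38 chromosome 17, 82228397 to 82261129, plus strand), went from 20.3, 20.4 and 20.2 to 35.0, 35.3 and 34.6 FPKM. Its groups lay apart by many times their spread, and its log2 fold change of 0.77 (SE 0.020, edgeR adjusted p = 8.84e-10) was the highest of the 31 tested genes. Once GC and length were corrected for it was 0.50, below ENO2 (0.67), PDK1 (0.61), HK2, TXNIP and SLC2A3 and level with PFKFB3 (0.50). CSNK1D, on the other strand across SLC16A3, had 56.9% as many counts and rose by 0.25 on the log2 scale, and without the strand setting reads of one cannot be told from reads of the other. SLC16A1, the carrier MCT1, was at 27.8, 28.1 and 29.2 FPKM in shControl and 27.4, 27.6 and 28.0 in shSLC1A5, with overlapping groups. Its log2 fold change of -0.05 had a 95% confidence interval of -0.10 to 0.01 (edgeR adjusted p = 0.168), and was 0.01 after the correction. SLC16A3 was below SLC16A1 in FPKM in each shControl library and above it in each shSLC1A5 library, going from 41.7% ± 0.713 to 55.8% ± 0.505 of the pair (SD, n = 3). BSG, the chaperone that carries both to the membrane, rose from 56.2 ± 0.285 to 72.5 ± 1.19 FPKM, a log2 fold change of 0.35, which became 0.14 after the correction.

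Across the 11 pairs of isoenzymes and carriers compared within each library, the log2 ratios of the 2 groups did not overlap in 8. Each of those 8 gave p = 0.1 by an exact two-sided permutation test, the smallest possible, and 0.138 adjusted over the 11 pairs, so none can pass a threshold of 0.05 in this design. Ratios shifted toward HK2 over HK1 by 0.43, toward ENO2 over ENO1 by 0.61, toward SLC16A3 over SLC16A1 by 0.82 and toward LDHA over LDHB by 0.44 on the log2 scale. They also shifted toward PFKL, by 0.25 against PFKP and by 0.55 against PFKM, toward PFKFB3 over PFKFB2 by 0.61, and toward PDK1 over PDK3 by 0.25. These ratios were not corrected for GC and length. In the corrected fit PFKL was at 0.27, PFKP at 0.20 and PFKM at 0 on the log2 scale. SLC16A3 was at 0.50 there and SLC16A1 at 0.01, so the shifts toward PFKL and SLC16A3 were smaller. LDHA was at 0.43 and LDHB at -0.03, so the shift toward LDHA was not smaller. SLC2A3 over SLC2A1 (0.12), PFKFB4 over PFKFB3 (-0.03) and ALDOC over ALDOA (0.23) overlapped between groups, with exact p of 0.2, 0.7 and 0.6. The ALDOC over ALDOA difference was -0.01 without shControl replicate 2, 0.46 without shControl replicate 3 and -0.24 on log2(FPKM + 1), so it has no stable sign. HK2 and ENO2 were the less abundant gene of their pair in every library, whereas LDHA was the more abundant of its pair in every library.

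**Figure D4:**
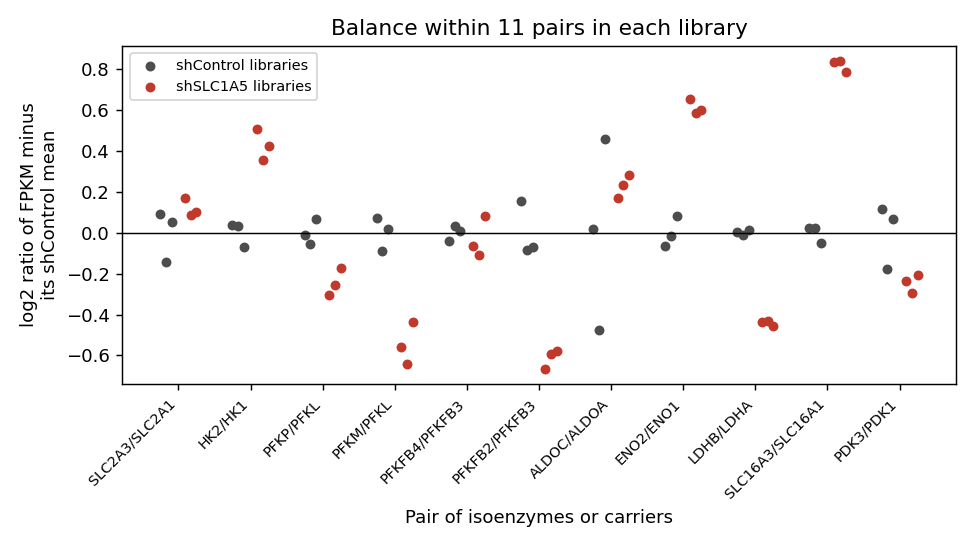
For 11 pairs (horizontal axis) the log2 ratio of FPKM of the first gene over the second is drawn for each library after subtracting the shControl mean of that pair, grey for shControl and red for shSLC1A5. SLC16A3/SLC16A1 lies highest, at a mean of 0.82, PFKFB2/PFKFB3 lowest, at -0.61, and ALDOC/ALDOA shows the widest spread among shControl libraries.

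Whether pyruvate enters the citric acid cycle is set by pyruvate dehydrogenase, which PDK kinases switch off. PDK1, a hypoxia-induced kinase, went from 3.74, 4.21 and 3.92 to 5.64, 5.999 and 5.85 FPKM, a log2 fold change of 0.55 (SE 0.046, edgeR adjusted p = 6.24e-06). PDK3 went from 1.98, 1.82 and 2.01 to 2.35, 2.39 and 2.48 FPKM, a log2 fold change of 0.30 (SE 0.054). PDHA1, the subunit that these kinases phosphorylate, had overlapping values of 23.7, 22.03 and 22.1 in shControl and 21.9, 22.5 and 23.5 FPKM in shSLC1A5. Its log2 fold change was -0.01, with a 95% confidence interval of -0.10 to 0.08 (edgeR adjusted p = 0.821). Of 10 other genes of pyruvate entry, 6 fell and 1 rose, with a median log2 fold change of -0.14. Over all tested genes 19% fell and 20.2% rose. Those that fell include PDP1, a phosphatase that switches the complex back on, from 16.2 ± 0.310 to 13.1 ± 0.181 FPKM, PDP2, another such phosphatase, by 0.18 on the log2 scale, and the subunit gene PDHB, by 0.19. PC, pyruvate carboxylase, rose by 0.34. Once GC and length were corrected for, 3 of the 10 were lower and 0 higher, against 14.8% and 11.1% over all tested genes. PDP2 (edgeR adjusted p = 0.0584) and PC (0.11, edgeR adjusted p = 0.0782) were among the calls lost.

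On the glycogen side, 3 of 5 genes rose, against 20.2% of all tested genes. PGM1, which links glucose 6-phosphate to glycogen precursors, went from 39.4, 37.0 and 39.4 to 46.9, 49.8 and 48.0 FPKM, a log2 fold change of 0.31 (SE 0.031). ITGB3BP, on the other strand across PGM1, had 24.5% as many counts and was at -0.08 on the log2 scale (edgeR adjusted p = 0.203). GYS1, the glycogen synthase outside liver, went from 13.8, 13.6 and 14.5 to 19.3, 20.2 and 20.2 FPKM, a log2 fold change of 0.50 (SE 0.038, edgeR adjusted p = 3.14e-06). GBE1, which adds branches to glycogen, went from 30.7, 31.3 and 32.2 to 37.5, 37.5 and 37.4 FPKM, a log2 fold change of 0.24 (SE 0.024). UGP2, which makes UDP-glucose, had 9.49, 9.38 and 9.77 FPKM in shControl and 10.7, 10.1 and 10.0 in shSLC1A5. Those values did not overlap, but the log2 fold change of 0.09 missed the threshold (SE 0.042, edgeR adjusted p = 0.0997), and UGP2 was called only once GC and length were corrected for (0.17, edgeR adjusted p = 0.0119). PYGL, a phosphorylase that breaks glycogen down, was at 4.78, 4.91 and 5.11 FPKM in shControl and 4.86, 5.88 and 5.13 in shSLC1A5. The groups overlapped, and the log2 fold change of 0.09 had a 95% confidence interval of -0.07 to 0.24 (edgeR adjusted p = 0.369). PYGB, the brain phosphorylase and the more abundant one here, was at 45.6 and 44.7 FPKM, with an edgeR adjusted p = 0.2, and is named after its values were seen.

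Of 14 other glycogen genes tested, 3 rose and 2 fell, with a median log2 fold change of 0.06, and 3 rose and 0 fell once GC and length were corrected for. The first counts are near the 20.2% and 19% over all tested genes. The corrected shares over all tested genes were 11.1% higher and 14.8% lower. STBD1, which binds glycogen and targets it to lysosomes, had 1.00, 0.977 and 1.13 FPKM in shControl and 2.39, 1.73 and 4.75 in shSLC1A5, a wide spread within the second group (log2 fold change 1.501, SE 0.2997, edgeR adjusted p = 0.00257). GAA, the lysosomal enzyme that degrades glycogen, rose from 7.13 ± 0.308 to 11.2 ± 0.523 FPKM, or by 0.64 on the log2 scale and 0.34 once GC and length were corrected for. GSK3B, a kinase that inhibits glycogen synthase, fell by 0.17, and PHKA2, a phosphorylase kinase subunit, rose by 0.18. Both calls were lost in the corrected fit, at -0.11 for GSK3B (edgeR adjusted p = 0.0555) and 0.11 for PHKA2 (edgeR adjusted p = 0.239). Among other isoenzymes of the steps above, 5 of 12 tested genes rose and 4 fell, with a median log2 fold change of 0.11. In the corrected fit 4 were higher and 3 lower, and the median was -0.02. BSG, which rose, and HKDC1, which fell, are described above. SLC2A10, a further glucose carrier, rose from 10.6 ± 0.134 to 13.0 ± 0.231 FPKM, and PDK2 by 0.29 on the log2 scale, a call lost after the correction (0.11, edgeR adjusted p = 0.458).

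In the pentose phosphate pathway and other side branches, 4 of 16 tested genes rose and 4 fell, with a median log2 fold change of -0.03. These counts of the plain fit are near the 20.2% and 19% over all tested genes and are no result about the branches. H6PD, a glucose 6-phosphate dehydrogenase of the endoplasmic reticulum, rose from 4.48 ± 0.131 to 5.96 ± 0.0867 FPKM (SD, n = 3). PHGDH, which draws 3-phosphoglycerate into serine synthesis, fell from 25.9 ± 1.04 to 18.5 ± 0.209 FPKM. GFPT1 and GFPT2, which draw fructose 6-phosphate and glutamine into hexosamine synthesis, fell by 0.33 and 0.39 on the log2 scale. Of the 2 tested genes of gluconeogenesis, PCK2, the mitochondrial phosphoenolpyruvate carboxykinase, fell by 0.37 (0.58 in the corrected fit) and G6PC3, a glucose 6-phosphatase, rose by 0.33. Once GC and length were corrected for, the side branches had 2 of the 16 genes higher and 7 lower. Over all tested genes the corrected shares were 11.1% higher and 14.8% lower.

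Genes of the hypoxia response, which share a regulator with much of glycolysis, rose in 17 of 18 tested cases and fell in 0, with a median log2 fold change of 0.46. Over all tested genes 20.2% rose and 19% fell. With GC and length corrected for, the counts were again 17 and 0, against 11.1% higher and 14.8% lower over all tested genes. ANGPTL4, a secreted inhibitor of lipoprotein lipase, had 0.356, 0.386 and 0.399 FPKM in shControl and 4.06, 4.26 and 4.73 in shSLC1A5. CA9, a carbonic anhydrase, went from 0.924, 0.610 and 0.881 to 3.01, 4.15 and 3.17 FPKM. Their log2 fold changes, 3.48 and 2.07, exceeded that of each of the 31 genes tested. DDIT4 and NDRG1 rose by 1.09 and 0.90 on the log2 scale. Among regulators, 4 of 7 tested genes rose and 0 fell: ARRDC4, EPAS1 (a hypoxia-inducible factor subunit, 0.32), MLXIP (0.26), a sensor of glucose phosphates, and MYC (0.15, edgeR adjusted p = 0.0459). After the correction MLXIP and MYC lost their calls, with edgeR adjusted p of 0.151 and 0.165. Again 4 of the 7 genes were higher, but not the same 4. ARRDC4 and EPAS1 kept their calls, and the others had not been called in the plain fit. The transcript of HIF1A, whose product is controlled mainly by protein breakdown, was at 51.6 and 51.7 FPKM, a gene named after its values were seen. Its log2 fold change in the plain fit was -0.01 (edgeR adjusted p = 0.757), and its corrected value is not given here.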

How the data were processed

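RNA of 3 shControl and 3 shSLC1A5 T98G libraries was measured by paired-end sequencing of poly(A) RNA, per the labels' protocols. The submitters' processing notes name fastp, HISAT2 and StringTie; versions, genome build, annotation and strand setting are not given here in any source used. The authors deposited 1 table which, per the file headers, holds raw counts per gene and FPKM (fragments scaled to gene length and library size). Columns were matched to samples by number and by NC or sh, with 0 left unmapped. GENCODE 29 holds 34674 of the 35750 gene IDs; since 99.97% of them lie on their own GRCh38 gene, coordinates from the table are given on that build.

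The 11841 genes whose mean reached 1 FPKM were tested with edgeR 4.0.16 in R 4.3.3 (TMM, group alone, quasi-likelihood F test, Benjamini-Hochberg adjustment over all of them, threshold 0.05). SE is the log2 fold change divided by the square root of F, and 95% intervals use the test's degrees of freedom. Isoenzyme ratios and the share of FPKM were compared by exact permutation. The correction for GC content and length took GC and length from each gene's longest GENCODE 29 transcript (99.7% of tested genes had one) and used loess with a span of 0.3, as edgeR offsets. DESeq2 1.42.0, limma 3.58.1 on log2(FPKM + 1) and log2(FPKM + 0.1), median-of-ratios scaling, quantile normalization with limma, no expression minimum, a minimum of 5 FPKM, blocking on replicate number and leaving out each library in turn were alternatives. Replicate libraries differed by 9.82 to 16.7 times the variance of counting noise (chi-square per gene), so no pair agreed within sampling noise; this does not show that they came from separate cultures. On counts simulated for this comparison and 11841 genes, edgeR recovered 41.8%, 64.2% and 90.9% of genes changed by 0.25, 0.5 and 1 on the log2 scale and called 13 of 11641 unchanged genes. Only 67, 67 and 66 genes were changed by these amounts, and no trend with GC was put in. In the data 39.2% of tested genes were called, so these rates may not carry over.

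The members, the pathway and marker lists and the tests were chosen with earlier results of these data known. All 33 members are named; from each pathway list up to 4 called genes with the largest change are named, and in lists with fewer than 2 called genes the 2 of the highest level.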

Additional observations from a re-analysis of the deposited data

How the results depend on the processing

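The count of members that rose was 25 in every fit run except quantile normalization, a minimum of 5 FPKM and the correction for GC content and length, where it was 24, 22 and 26; with the stricter minimum 28 of the members were tested. The count that fell was 0 in place of 1 with no expression minimum, with limma on log2(FPKM + 1) or log2(FPKM + 0.1), and after the correction, because LDHB lost its call. The genes called over the whole table numbered 3071 after the correction in place of 4641, of which 2330 kept call and direction. Of 462 member values under the alternatives, 449 kept direction and side of the threshold. Genes that were not called crossed 0: PDHA1 was at 0.004 with a minimum of 5 FPKM and 0.037 after the correction, and SLC16A1 at 0.013 after the correction. With 1 library left out, PDHA1 ranged from -0.04 to 0.027 (0.027 and 0.005 without replicate 1 of shControl or of shSLC1A5) and PFKM from -0.002 to 0.05, negative without replicate 3 of either group. The gain of the 11 steps was 0.394 percentage points of scaled counts in place of 0.357 of FPKM. With each library left out in turn, 25 members rose and 1 fell, the median log2 fold change of the members was 0.33 to 0.35, and that of SLC1A5 was -0.14 to -0.13. Between 3863 and 4081 genes were then called over the table, 28 to 31 members and 8 to 9 pairs did not overlap, and the gain of the 11 steps was 0.346 to 0.375. SLC1A5 was at -0.35 after the correction. Except where a setting tests fewer genes or samples, the cause of these changes was not tested.

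The labels give both groups the same replicate numbers, but deviations of same-numbered libraries from their group means did not correlate (-0.15, 0.04 and -0.03), so the numbers were not taken to pair them. With a replicate block, 4470 genes, 25 members higher and 1 lower were called, with a median log2 fold change of 0.34 for the members and -0.14 for SLC1A5. Not every sample correlated best with its own number.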
